A study of Mus musculus with 2 samples.

Results

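The genes described here encode the constitutive proteasome and the factors that activate, inhibit or assemble it, as read in nucleoplasmic RNA of mouse macrophages. They were taken by name. A gene counted if its symbol began with Psma, Psmb, Psmc, Psmd, Psme, Psmf or Psmg followed by a number and if it had an annotated protein-coding transcript. The inducible genes Psmb8, Psmb9, Psmb10, Psme1 and Psme2 were left out by the rule and serve below as a comparison. Of 49 genes with such a symbol and outside those 5, 45 had a protein-coding transcript. They stand among 22028 protein-coding genes and 55536 annotated genes in all, and each of the 45 has a value in both libraries.

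Both libraries came from bone marrow-derived macrophages of the C57BL/6J strain, which are macrophages grown in culture from marrow precursors. The cells were first given 100 ng/ml of Lipid A for 12 h, the membrane anchor of lipopolysaccharide and the ligand of Toll-like receptor 4. They then spent 12 h without it and were collected at 0 min of a second exposure at the same dose. Total RNA of the nucleoplasmic fraction, which one label calls the nuclear fraction, was depleted of ribosomal RNA and sequenced. The 2 libraries are labelled biological replicates 1 and 2 of this 1 group. They come from separate biosamples that share 1 donor entry, and the labels do not say whether separate animals were used. Replicate 1 started from 1 µg of RNA and replicate 2 from 500 ng, so input and replicate cannot be told apart. With 1 group, no comparison between conditions and no test was possible, and every error given is the spread between the libraries or a counting interval.

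Annotated genes held 22907877 expected counts in replicate 1 and 18612405 in replicate 2. Levels are given as TPM, an abundance per transcript length scaled to the library's total, which can be compared between genes of one library. Protein-coding genes held 27.5% of all TPM in replicate 1 and 29.6% in replicate 2. The 8 macrophage markers examined had mean TPM between 58.9 (Itgam, an integrin chain) and 1247 (Lyz2, lysozyme). None of 12 markers of other cell types reached a TPM of 1 in both libraries, their summed TPM was 2.56 and 2.13, and Cd3e, Ly6g and Epcam were listed at 0 in both. Of those detected, Kit had the highest mean TPM, 0.805, and Cd79a the lowest, 0.045.

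The proteasome is the protease that degrades proteins tagged with ubiquitin in the cytoplasm and the nucleus. Its core is a barrel of stacked rings in which alpha subunits form the gated outer rings and beta subunits form the inner rings with the cutting sites. A regulatory particle caps the barrel: its base holds a ring of ATPases that unfold substrates, and its lid removes ubiquitin. In macrophages exposed to inflammatory signals, the inducible subunits Psmb8, Psmb9 and Psmb10 can take the place of the constitutive cutting subunits Psmb5, Psmb6 and Psmb7, which makes the immunoproteasome. The other inducible genes, Psme1 and Psme2, encode the alpha and beta chains of the activator PA28. Transcription of the constitutive genes is known to rise through the factor NRF1 (gene Nfe2l1) when proteasome activity is short.

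Most of the constitutive proteasome genes were detected, at levels from 0.015 TPM (Psmb11) to 51.4 TPM (Psme2b) by the mean of the libraries. Genes with 1 TPM or more in each library are called expressed here, and 42 of the 45 genes were. Of the 45 genes, 31 had a TPM of 10 or more in each library. That level was reached by 19.7% of all protein-coding genes, and by 4330 of the 9791 expressed ones. The median TPM of the 45 genes was 16.4 in replicate 1 and 15.3 in replicate 2. Over expressed protein-coding genes, the medians were 9.34 and 9.07. On the scale of log2(TPM + 0.1), the median of the 45 genes was 4.0 ± 0.07 (SD, n = 2). Together they held 0.301% of protein-coding TPM in replicate 1 and 0.261% in replicate 2. The levels of the 45 genes were alike in the libraries, with a Pearson correlation of 0.977 across genes on the log2 scale. It was 0.92 over the 31 core and regulatory particle genes other than Psma8 and Psmb11. Over all protein-coding genes it was 0.991, and over expressed ones 0.973. Genes are not independent replicates, and these values describe these 2 libraries only.

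**Figure D1:**
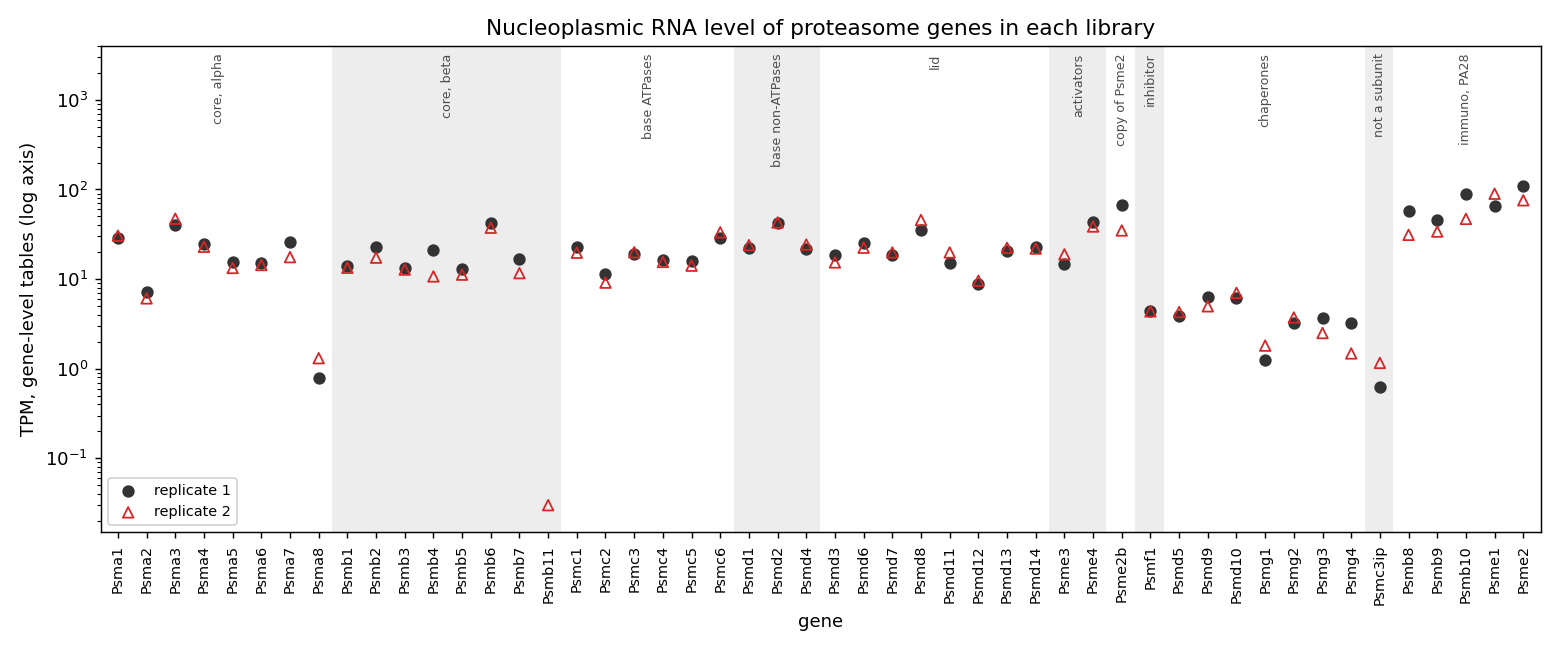
TPM of each of the 45 constitutive genes and the 5 inducible genes in replicate 1 (filled circles) and replicate 2 (open triangles), on a log axis, with shaded and white bands marking the roles. Of the 31 core and regulatory particle genes other than Psma8 and Psmb11, 28 reach 10 TPM in both libraries, the chaperones lie under 10, and Psmb11 in replicate 1 is at 0 and not drawn.

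The alpha ring genes form the barrel's entrance. Psma3 had the highest level of them, 40.1 TPM in replicate 1 and 47.2 in replicate 2 (43.6 ± 5.02, SD, n = 2). It lies on the plus strand of chromosome 12 (mm10, chr12:70974621-70996347). Psma2 had the lowest, 7.20 and 6.09 TPM (6.64 ± 0.78), and lies on the plus strand at chr13:14613240-14674236. Over transcripts of all types, Psma3 was thus above Psma2 by 5.57 times in replicate 1 and 7.75 times in replicate 2. Only 22.8% and 21.2% of Psma3 was on protein-coding transcripts, but 100% of Psma2 was in both libraries. The gap was therefore much smaller on protein-coding transcripts. In the second quantification Psma3 had 26.5 and 36.8 TPM, and Psma2 had 6.69 and 9.29. Psma1 stood at 29 and 30.5 TPM, and Psma4 at 24.9 and 22.9. Psma7, another ring subunit, measured 26.2 TPM in replicate 1 and 17.6 in replicate 2. Psma5 had 15.5 and 13.3 TPM and Psma6 had 15.3 and 14.4. The order of Psma5 and Psma6 is not settled, since it differs between the libraries, and neither is that of Psma4 and Psma7. The remaining alpha gene, Psma8, encodes the alpha subunit of germ cells in the testis. It was at 0.78 and 1.31 TPM, from 28 and 32 counts.

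The beta ring holds the 3 cutting sites and 4 subunits without one. Psmb6, which carries the caspase-like site, was the highest beta gene with 42.1 TPM in replicate 1 and 37.4 in replicate 2 (39.8 ± 3.30, SD, n = 2; plus strand, chr11:70525367-70527858). Psmb5, with the chymotrypsin-like site, was the lowest by its mean, with 12.9 and 11.2 TPM (12.0 ± 1.17; minus strand, chr14:54614119-54618022). Psmb7, with the trypsin-like site, had 16.7 and 11.6 TPM (14.2 ± 3.56; minus strand, chr2:38588036-38644087). The RNA levels of the 3 catalytic genes were therefore unequal, and Psmb6 was above the others in both libraries. Psmb2, a structural subunit, measured 23.1 and 17.3 TPM. Psmb4, also structural, measured 21 TPM in replicate 1 and 10.7 in replicate 2. Psmb1 had 13.9 and 13.4 TPM and Psmb3 had 13.2 and 12.8. The order of Psmb1, Psmb3, Psmb4, Psmb5 and Psmb7 was thus not the same in the libraries, and Psmb4 was below Psmb5 in replicate 2. Psmb11 encodes the catalytic subunit of thymus epithelium. It had 0 counts in replicate 1, where 3 counts would correspond to 0.0475 TPM, and 3 counts in replicate 2 (plus strand, chr14:54621433-54629556).

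The base couples the barrel to adenosine triphosphate. Psmc6 was the highest of its 6 ATPase genes, at 28.4 TPM in replicate 1 and 33.3 in replicate 2 (30.9 ± 3.42, SD, n = 2; plus strand, chr14:45329788-45349705). Psmc2 was the lowest at 11.3 and 9.13 TPM (10.2 ± 1.51; plus strand, chr5:21785283-21803787). The other 4 ATPase genes lay close together. Psmc1 had 22.7 and 19.7 TPM, and Psmc3 had 19.2 and 19.9. Psmc4 had 16.4 and 15.5 TPM, and Psmc5 had 15.7 and 14.1. Of the base genes that are no ATPases, Psmd2 encodes a large scaffold that holds ubiquitin-like domains of shuttle factors. It stood at 42.6 and 42.9 TPM (42.7 ± 0.19; plus strand, chr16:20651652-20663414). Psmd1, the second scaffold, had 22.0 and 23.9 TPM. Psmd4, a receptor for ubiquitin chains, had 21.6 and 24.3 TPM (22.9 ± 1.94; minus strand, chr3:95032694-95042614). Psmd2 was above both of them in both libraries.

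The lid genes covered a similar range. Psmd8, one of the lid's structural subunits, was the highest with 35.6 TPM in replicate 1 and 45.7 in replicate 2 (40.6 ± 7.13, SD, n = 2; minus strand, chr7:29174188-29180701). In the second quantification Psmd14 was above it, with 24.2 and 41.7 TPM against 23.7 and 33.8. Psmd12, another structural subunit, was the lowest with 9.18 ± 0.59 TPM, from 8.76 and 9.59 (plus strand, chr11:107479484-107504362). Psmd14 encodes the enzyme that cleaves ubiquitin from substrates and had 22.8 and 21.9 TPM. Its partner in the lid, Psmd7, had 18.5 and 19.8 TPM. The structural subunit Psmd6 had 25.1 and 22.4 TPM, and Psmd13 had 20.5 and 22.3. Psmd3 had 18.7 and 15.3 TPM, and Psmd11 had 15.3 and 19.8. Except for Psmd8 and Psmd12, the lid genes had means between 17.0 and 23.8 TPM, and their order differed between the libraries.

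Medians were also compared by ring and particle. The 14 core genes other than Psma8 and Psmb11 had a median of 18.8 TPM in replicate 1 and 13.9 in replicate 2, and the 17 base and lid genes had 20.5 and 19.9. On the log2 scale the core lay below the regulatory particle by 0.13 in replicate 1 and 0.52 in replicate 2, a mean of -0.33. Over transcripts of all types, the highest core gene was above the lowest by 5.85 and 7.75 times. For the regulatory particle these values were 4.86 and 5.0 times. The alpha ring had a median of 24.9 and 17.6 TPM and the beta ring 16.7 and 12.8, so the alpha ring was above the beta ring in both libraries.

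The nuclear activators were well represented and the assembly factors were low. Psme4 encodes a large nuclear activator that opens the barrel without ATP, and it had 43.4 and 38.6 TPM (41.0 ± 3.38, SD, n = 2; plus strand, chr11:30771726-30880361). It also had the most counts of the 45 genes, 4142 and 3478. Psme3 encodes the other nuclear activator, a relative of PA28, and had 14.7 and 18.9 TPM (16.8 ± 2.96; plus strand, chr11:101316213-101323537). The inhibitor gene Psmf1 had 4.39 and 4.36 TPM (minus strand, chr2:151715812-151744186). Of 7 genes for chaperones that help to assemble the complex, 0 reached 10 TPM in both libraries. Among them Psmd10, which binds an ATPase of the base, was the highest by its mean, with 6.21 and 7.02 TPM (6.62 ± 0.57; minus strand, chrX:140948429-140956728). The base chaperones Psmd9 and Psmd5 had 6.38 and 4.97 TPM, and 3.88 and 4.29 TPM. Psmd9 was thus above Psmd10 in replicate 1, and both base chaperones had higher means than Psmd10 in the second quantification (3.57 for Psmd9 and 3.59 for Psmd5, against 3.24). Psmg1 to Psmg4 act on the core. Psmg1 was the lowest by its mean, with 1.25 and 1.81 TPM from 26 and 27 counts (minus strand, chr16:95979933-95990960). Psmg2 had 3.21 and 3.73 TPM, and Psmg3 had 3.67 and 2.50. Psmg4 had 3.24 TPM from 27 counts and 1.48 TPM from 11 counts, below Psmg1 in replicate 2. In the second quantification the lowest mean was that of Psmg3, 1.27 TPM. Psmc3ip matches the name rule but acts in meiotic recombination and is no subunit, and it had 0.63 and 1.16 TPM (minus strand, chr11:101091823-101095436).

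In TPM over transcripts of all types, the inducible genes stood above most constitutive ones, but not at every cutting site. Their 5 genes had a median of 65.8 TPM in replicate 1 and 46.9 in replicate 2. Psmb8 had 57.6 and 31.2 TPM, which is 4.47 and 2.78 times its constitutive counterpart Psmb5. Psmb10 had 88.4 and 46.9 TPM, or 5.30 and 4.03 times Psmb7. Psmb9 had 45.2 and 33.9 TPM, or 1.07 and 0.907 times Psmb6. On the scale of log2(TPM + 0.1) the mean differences were 1.81 ± 0.48 (SD, n = 2) for Psmb8 over Psmb5 and 2.20 ± 0.28 for Psmb10 over Psmb7. For Psmb9 over Psmb6 the difference was -0.02 ± 0.17 and changed sign between the libraries. A second quantification deposited for each library gave ratios of 4.17 and 3.33, 5.66 and 4.55, and 1.26 and 1.07 for the same 3 pairs. The levels of Psmb8 and Psmb9 were mostly on transcripts annotated with a retained intron, 80.5% and 88.7% for Psmb8 and 55.8% and 54.9% for Psmb9. Of Psmb10, 24% and 26.9% was on protein-coding transcripts, and 53.4% and 35.8% was on processed transcripts without a coding frame. On protein-coding transcripts were 19.5% and 11.3% of Psmb8 and 38.9% and 41.0% of Psmb9. For the constitutive genes these shares were 100% in both libraries for Psmb5, 56.8% and 58.1% for Psmb6, and 73.1% and 59.5% for Psmb7. The ratios above cover all transcript types. By these shares Psmb8 lay under Psmb5 and Psmb9 under Psmb6 on protein-coding transcripts in both libraries, while Psmb10 stayed above Psmb7. Psmb9 also overlaps Tap1 on the other strand, a peptide transporter gene with 160.0 and 104.4 TPM, and the use of strand in counting is not given in the sources used here. The PA28 genes Psme1 and Psme2 had 65.8 and 89.6 TPM, and 109.4 and 75.8 TPM. Of Psme1, 58.9% and 26.8% was on protein-coding transcripts, and of Psme2, 58.9% and 52.6%.

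**Figure D2:**
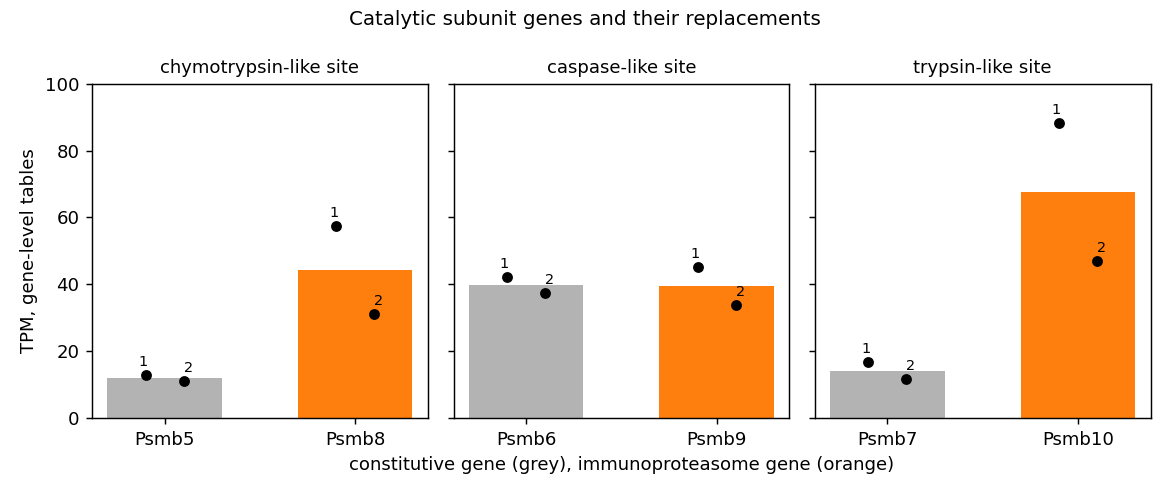
TPM over transcripts of all types for the 3 constitutive catalytic genes (grey) and their inducible replacements (orange), with bars at the mean of the 2 libraries and points numbered by replicate. Psmb8 and Psmb10 lie above Psmb5 and Psmb7 in both libraries, while Psmb9 and Psmb6 overlap.

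One gene of the set is a near copy of an inducible gene. Psme2b has a single exon on the minus strand of chromosome 11 (chr11:48945354-48946190), whereas Psme2 lies on chromosome 14 (minus strand, chr14:55587441-55591113). The coding sequences of both, 717 bases each in the GENCODE transcripts of GRCm38, were 99.3% identical and differed at 5 positions. Counted from the first coding base, with Psme2 first, these were C312T, A369G, C489T, C519T and C543T. Coding bases 490 to 549 show how few positions can tell the copies apart, with the differing bases in capitals:

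Psme2: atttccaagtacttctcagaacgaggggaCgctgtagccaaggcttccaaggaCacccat

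Psme2b: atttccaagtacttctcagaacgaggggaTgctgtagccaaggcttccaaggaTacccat

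The level listed for Psme2b was 67.9 TPM in replicate 1 and 34.9 in replicate 2, the highest gene-level mean of the 45 genes (51.4 ± 23.3, SD, n = 2). In replicate 2 Psma3 was above it, and in the second quantification Psme4 was, by its mean. How the quantification divided reads between the copies is uncertain. Psme2b took 42.9% and 34.9% of the counts of the pair in the gene-level tables and 60.1% and 60.5% in the second quantification. The counts of the pair summed to 2767 and 1525 in the gene-level tables. Psme2b also shares 41 bases at the start of its exon with an exon of 9930111J21Rik1 on the same strand, a gene with 6642 and 2913 counts, and lies inside an intron of Gm12185. The ratio of replicate 2 over replicate 1 was -0.93 on the log2 scale for 9930111J21Rik1, -0.90 for Psme2b and -0.41 for Psme2. In the second quantification these ratios were -0.95, -0.40 and -0.42. The part of the neighbour's reads in the value of Psme2b was not tested.

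Near copies with counts were few among the other genes. A copy was an annotated gene at least 95% identical over at least 50% of the coding sequence. Psmd11 has the processed transcript A730017L22Rik, 98.0% identical, with 271 and 334 counts beside 955 and 1081 for Psmd11 itself. The pseudogene Gm6542 of Psma4 had 36.3 and 31.3 counts beside 615 and 485. The copies found for Psma3, Psma5, Psmb3, Psmb5, Psmc1, Psmd2 and Psmg3 each had at most 12.1 counts in a library. No other annotated gene overlaps 25 of the 45 genes. Among those that do, on the other strand, Psmc3 overlaps Slc39a13, which had 1139 and 1092 counts. Psmb7 overlaps Nek6, which had 923 and 809 counts, more than Psmb7 itself with 669 and 466. Psma3 overlaps 3110056K07Rik (443 and 324 counts), Psmc3ip overlaps Mlx (350 and 378), Psmd13 overlaps Sirt3 (219 and 234) and Psmd1 overlaps Htr2b (198 and 178). On the same strand, Psmd1 overlaps Gm37914 (249 and 335 counts), Psmd13 overlaps Gm15542 (151 and 81.8) and Psma2 overlaps AW209491 (130 and 99). How reads were divided at these overlaps is uncertain.

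The 2 libraries were compared gene by gene for this set. Ratios of replicate 2 over replicate 1 were taken from counts after TMM scaling, which scales each library as a whole to adjust for depth and composition. Ratios were read for genes with 100 counts or more on average over the libraries, called well counted here. A well counted gene was called apart if its log2 ratio was 1 or more in size. Of the 38 well counted constitutive genes 0 were apart, against 2.00% of all well counted genes. In the second quantification 0 of 41 were apart, against 3.31%. At these general shares, few or no genes of so small a set would be apart. Of the 38 genes, 22 were lower and 16 higher in replicate 2, and 51.6% of well counted protein-coding genes were lower. The 95% counting interval left out 0 for 17 of the 38, against 57.5% of well counted protein-coding genes. It lay below 0 for 11 of the 38 and above 0 for 6, against 30.5% and 27.0% of those genes. These intervals cover counting error only, with each read taken as independent, and no molecular identifiers were found that would show copied fragments. They do not cover error in assigning reads to genes or variation between cultures.

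The ratios are given next by particle. Of the 14 core genes, 10 were lower in replicate 2 (median ratio -0.15, log2), and 13 were lower in the second quantification, where 53.2% of protein-coding genes were. The interval lay below 0 for 6 of the 14 core genes and above 0 for 0 of them. Of the 8 lid genes, 4 were lower and 4 higher, and library totals as the scaling gave 3 lower and 5 higher. Of the 17 base and lid genes together, 10 were lower by count ratio and 9 with library totals as the scaling. By TPM, 7 of the 17 were lower and 10 higher, so the direction of this group depends on the measure. The interval lay above 0 for 4 of them and below 0 for 4. No test compared the core with the lid.

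Single genes set the ends of the range. Psme2b had the lowest ratio among the well counted genes, -0.90 (interval -1.05 to -0.75), and -0.40 in the second quantification. Psmb4 had 392 and 186 counts, a ratio of -0.82 (interval -1.08 to -0.56) and -0.79 in the second quantification. Psma7 followed with 552 and 299 counts and a ratio of -0.63. At the upper end the activator Psme3 had 970 and 1108 counts and a ratio of 0.45 (interval 0.32 to 0.57), with 0.42 in the second quantification. Psmd11 had a ratio of 0.43 (interval 0.31 to 0.56), with 0.35 in the second quantification and the copy named above. Psme4 had a ratio of 0.00 (interval -0.06 to 0.07). Genes with few counts had wide intervals: Psmg4 was at -1.01 (interval -2.20 to 0.02) and Psmc3ip at 0.95 (interval 0.06 to 1.94). The 7 genes under 100 counts give no firm ratio, and Psmb11 gives none.

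**Figure D3:**
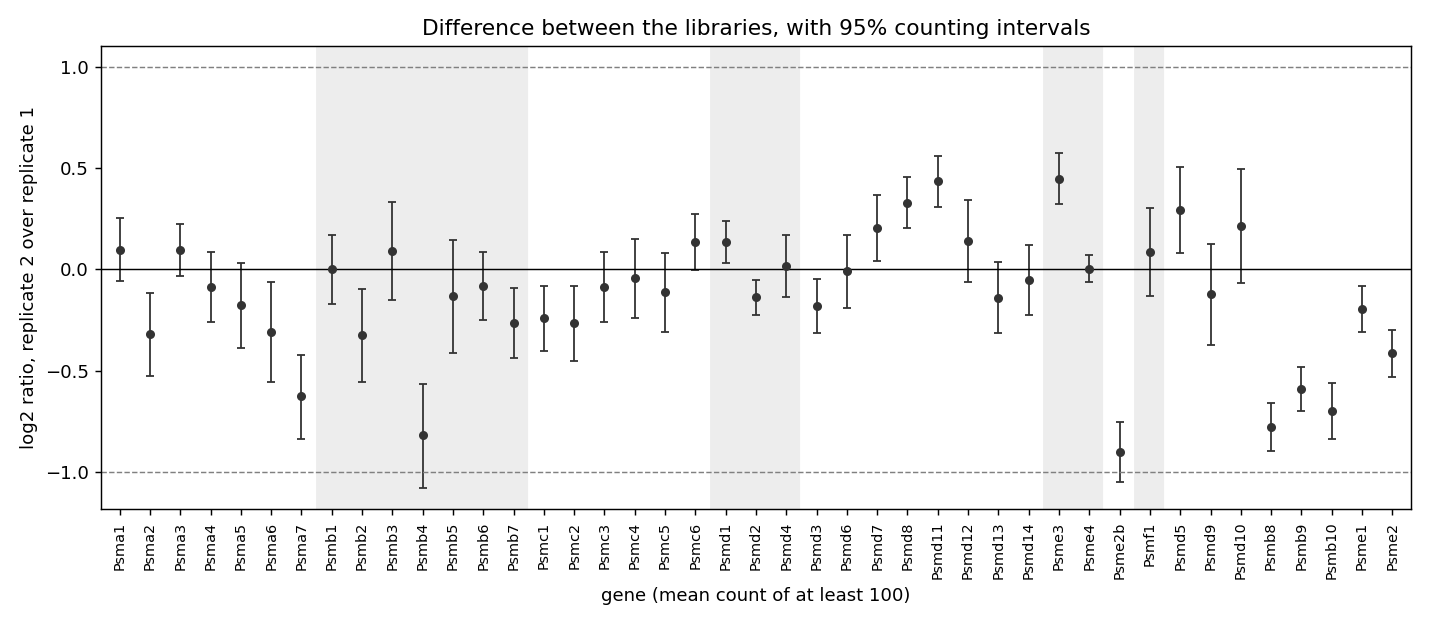
Log2 ratio of replicate 2 over replicate 1 (TMM-scaled counts) for the well counted constitutive and inducible genes, with 95% counting intervals and dashed lines at -1 and 1. Psme2b at -0.90 and Psmb4 at -0.82 are the lowest, Psme3 at 0.45 is the highest, and the 5 inducible genes at the right all lie under 0.

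By count ratio, the inducible genes and macrophage markers were lower in replicate 2, as were 51.6% of well counted protein-coding genes. All 5 inducible genes had a negative ratio, with a median of -0.59, and all 8 macrophage markers did, with a median of -0.49. The same held with library totals, with DESeq2 size factors and in the second quantification. The part of this difference between the libraries in the ratios of the constitutive genes was not tested. In bulk RNA, fewer cells of a type and less RNA per cell cannot be told apart. TPM and count ratios also differ for a few genes. TPM divides by the length of the transcripts assigned in each library, and the 2 measures are scaled differently. The part of each in the difference was not tested. The signs of TPM and count ratios differed for 7 of the 38 constitutive genes and for Psme1. The TPM of Psme1 was higher in replicate 2 while its count ratio was -0.19. Its share on protein-coding transcripts was 58.9% in replicate 1 and 26.8% in replicate 2. On transcripts marked for nonsense-mediated decay it was 3.19% and 56.1%, so its higher TPM was not on protein-coding transcripts.

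Many reads of these genes were assigned to transcripts that keep an intron. The retained-intron share is how much of a gene's summed transcript TPM fell on transcripts that the annotation marks as such. Of the 42 expressed genes, 27 have such a transcript. Their median share was 28.9% in replicate 1 and 34.4% in replicate 2 (31.7% ± 3.89, SD, n = 2). Over all 6143 expressed protein-coding genes with such a transcript the medians were 29.2% and 30.7%. A share over 50% in both libraries was found for 2 of the 27, Psmd6 and Psma3, against 15.4% of all such genes. In the second quantification it was found for 5 of the 27, against 22.8% of all such genes.

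The shares ranged widely between subunits of the same particle. Psmd6, the lid gene, had 63.4% and 53.8%, and Psma3, the alpha ring gene, had 61.9% and 54.5%. The transcript with the highest TPM of Psma3 was itself a retained-intron form, with 18.3 and 15.0 TPM. The inhibitor gene Psmf1 had 59.1% and 46.4%, Psmb3 had 48.6% and 51.2%, and Psmc6 had 37.6% and 51.8%. At the low end were 4 base genes, the alpha ring gene Psma4 and the lid gene Psmd11. Psmc1 had 7.58% and 9.04%, Psmd2 had 8.03% and 10.7%, and Psmd4 had 12.7% and 6.54%. Psmc2 followed with 16.7% and 17.5%, Psma4 with 16.1% and 18.6%, and Psmd11 with 19.9% and 14.0%. Other base genes were high, as Psmc4 with 42.1% and 41.7%. The 8 core genes with such a transcript had a median of 41.8% ± 0.43 (SD, n = 2), and the 13 base and lid genes had 24.4% ± 0.05. In the second quantification these were 45.9% and 48.4% for the core, and 30.6% and 33.6% for base and lid. No test compared them. Across the 27 genes, shares correlated at 0.837 between the libraries and at 0.823 between the quantifications (Pearson, means of the libraries for the latter). The quantifications share the same reads, and both libraries share the annotation.

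**Figure D4:**
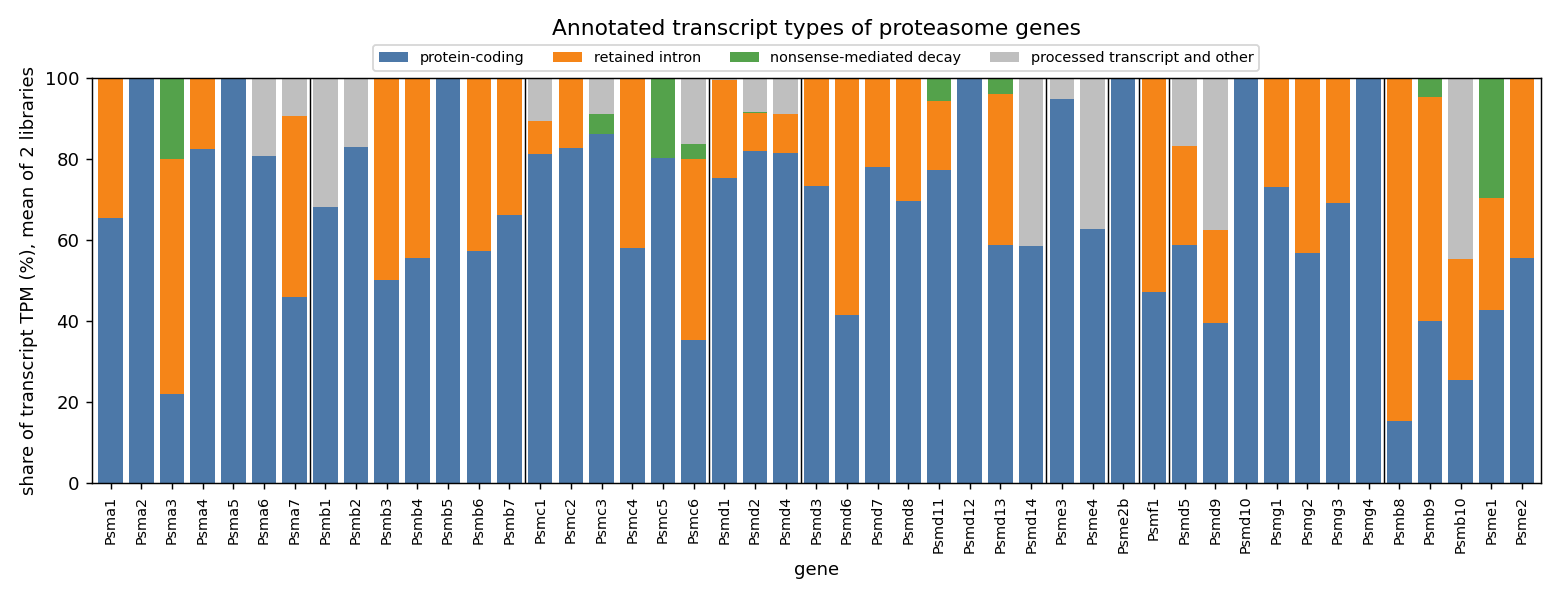
Share of each gene's transcript TPM on annotated transcript types, as the mean of the 2 libraries, for expressed constitutive and inducible genes, with vertical lines between roles. Retained-intron signal exceeds protein-coding signal in Psma3, Psmd6, Psmc6, Psmf1, Psmb8, Psmb9 and Psmb10, while Psma2, Psma5, Psmb5, Psmd10, Psmd12, Psmg4 and Psme2b are wholly on protein-coding transcripts.

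Protein-coding transcripts held most of the signal for most genes. Over the expressed genes of the set, their median share was 73.6% in replicate 1 and 68.8% in replicate 2, and 74.1% and 73.3% over all expressed protein-coding genes. Psma3 had only 22.8% and 21.2% on protein-coding transcripts, and 15.4% and 24.3% on transcripts marked for nonsense-mediated decay. Psmd14 had no retained-intron transcript, and 40.8% and 42.1% of its TPM was on processed transcripts, a type with no coding frame. Psme4 was similar with 37.2% and 37.4%. The share depends on what the annotation offers: 16 of the 45 genes have no retained-intron transcript, and no such share can be given for them. Psmb5, for example, had 100% on its protein-coding transcripts in both libraries.

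The second quantification gave lower TPM for most of these genes. In replicate 1, 41 of the 42 genes with 1 TPM or more in that library were lower in it, as were 90.2% of expressed protein-coding genes. In replicate 2, 36 of 44 were lower, and 77.7% of expressed protein-coding genes. The median of the 45 genes was 8.37 TPM in replicate 1 and 9.76 in replicate 2. Psmd14 was the only expressed gene of the set that was higher in it in both libraries. Psme4 had 39.9 and 52.4 TPM, and Psmb5 had 5.26 and 5.78. Psmb11 had 0.694 and 0.698 TPM by this quantification, while its gene-level values were 0 and 0.03 TPM. The log2 levels of the 45 genes correlated at 0.933 between the quantifications, and those of the core and regulatory particle genes other than Psma8 and Psmb11 at 0.853.

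**Figure D5:**
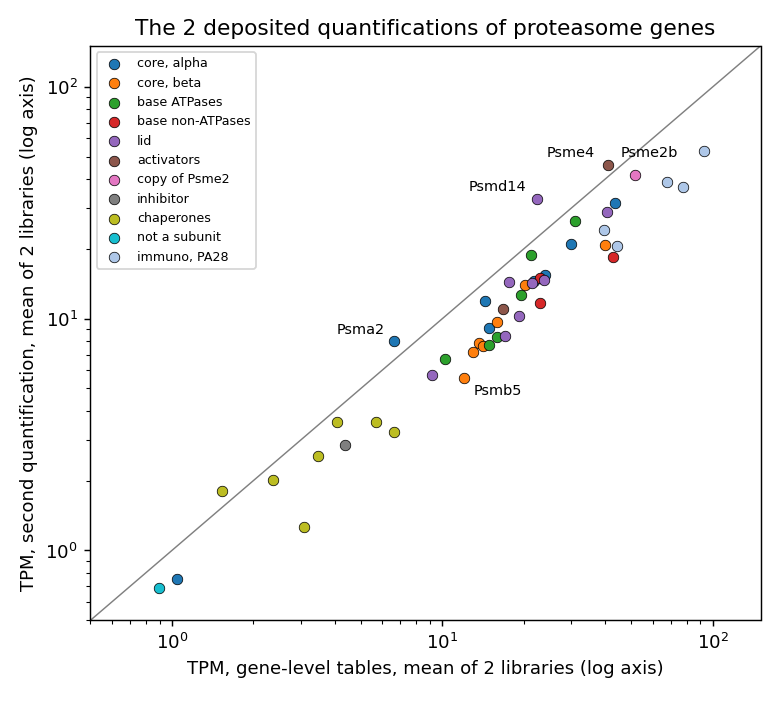
Mean TPM of each gene over the 2 libraries in the gene-level tables (horizontal, log axis) and in the second quantification (vertical, log axis), coloured by role, with the line of equality. Most genes lie under the line, Psmd14, Psme4, Psma2 and Psmg1 lie above it, and Psmb11 falls outside the plotted range.

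The promoters of these genes were examined for the antioxidant-type element that NRF1 and its relatives bind. RefSeq promoters of GRCm38.p6, from 250 bases before to 50 bases after the start, were found for 37 of the 45 genes, in 39 windows. The letters TGACNNNGC, searched on both strands, occurred in 6 of the 39 windows, or 15.4%. They occurred in 12.4% of all 32851 promoters and in 14.5% of those of expressed protein-coding genes. The genes were Psmb5, Psmb6, Psmc6, Psmd9, Psmd12 and Psme4. With A or G before these letters, 5 windows held the element (12.8%, against 6.31% of all promoters and 7.41% of those of expressed protein-coding genes). None of the 6 promoters of the inducible genes held it. The windows of 3 genes are shown because they belong to a catalytic gene, an ATPase gene and a chaperone gene, with the match in capitals:

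Psmb5: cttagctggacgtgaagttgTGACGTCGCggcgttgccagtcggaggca

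Psmc6: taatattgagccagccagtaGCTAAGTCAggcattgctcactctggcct

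Psmd9: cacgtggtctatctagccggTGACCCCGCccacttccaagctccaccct

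These lie at chr14:54618014-54618062 on the minus strand, chr14:45329577-45329625 on the plus strand and chr5:123228139-123228187 on the plus strand. The match begins 47 bases before the start of Psmb5 and 31 bases before that of Psmd9. In Psmc6 it begins 227 bases before the start and reads on the opposite strand. There C stands before the letters, so the window of Psmc6 does not hold the element with A or G. The 3 genes did not have a common level: the mean TPM was 12.0 for Psmb5, 30.9 for Psmc6 and 5.68 for Psmd9. The promoters of the set had a median GC content of 57.3% and a median of 20 CpG pairs per window, between those of all promoters (52.7% and 7) and those of expressed protein-coding genes (60.7% and 21). A match describes letters only, and no binding was measured.

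Genes that work with the proteasome spanned the same range and beyond. The subunits Adrm1 and Sem1 and the maturation factor Pomp do not match the name rule. The lowest of them by its mean was Adrm1, a ubiquitin receptor, with 22.6 and 16.4 TPM, and the highest was Pomp, with 27.1 and 21.1. Nfe2l1 itself had 75.0 and 73.6 TPM, the highest of the 4 genes of the NRF1 route that were read. Ddi2, the protease that releases the factor, was the lowest of these with 11.5 and 10.8. Ngly1 of this route and the proteasome-bound factor Paaf1 were not matched and have no value here. Of 11 shuttle and proteasome-bound factors 6 reached 10 TPM in both libraries, from Ubqln2 (2.45 and 3.38) to the scaffold Ecpas (38.7 and 42.0). By their means, the 3 adaptors of the ATPase p97 ran from Nploc4 (18.8 and 17.7) to Ufd1 (24.5 and 23.4). Among the ubiquitin and E1 enzyme genes, the E1 gene Uba6 was the lowest (3.64 and 4.51). The COP9 signalosome, a complex built like the lid, had a lower median than the lid in both libraries, 10.1 and 8.52 TPM against 19.6 and 20.9. By their means, its 9 genes ran from Cops7b (5.35 and 5.42) to Cops7a (19.2 and 19.7), with Cops6 at 4.95 in replicate 2. The retained-intron share of the 6 COP9 genes with such a transcript had a median of 52.4% ± 0.43 (SD, n = 2), against 28.3% ± 1.23 for 6 lid genes. In the second quantification they were closer, 48.2% and 50.5% for COP9 against 40.7% and 39.6% for the lid.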

How the data were processed

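Ribosomal RNA-depleted total RNA was sequenced from the nucleoplasm of 2 macrophage cultures. The authors deposited expected counts and TPM per gene and per transcript, and a second table of estimated counts and TPM per transcript. The assembly was mm10 and the annotation GENCODE mouse release 21, per the deposited notes. Which programs made them, and whether strand was used, is not given in the sources used here. Entries naming no gene (1.01% and 0.336% of the counts) were left out, and 86 genes have no second value. Second values were summed per gene.

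Expected counts were rounded. Log2 ratios used TMM scaling (R 4.3.3, edgeR 4.0.16), estimated on 14892 genes that passed filterByExpr (prior count 0.5), and were tested on simulated data. Intervals are exact (Clopper-Pearson) at 95%. DESeq2 1.42.0 size factors were an alternative. Coding sequences were compared with blastn 2.17.0. The tables were made in Python 3.11.15 with pandas 2.3.3, scipy 1.17.1 and numpy 2.4.6, and the figures with matplotlib 3.10.9. No p-value was computed, as there was 1 group. The genes and lists were chosen with earlier results of these data known. Values are named for every gene of the set, positions for the highest and lowest of each role and the 3 catalytic genes, and of other lists the highest and lowest detected gene. One such value is not reported here.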

Additional observations from a re-analysis of the deposited data

How the results depend on the processing

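With 2 libraries of 1 group no paired analysis was possible because there is no second group to pair with. The median level of 4.0 on the log2 scale became 4.08 with a pseudocount of 1, 3.19 in the second quantification, 5.80 with TPM taken over protein-coding genes and 4.10 over expressed genes. It was 4.34 over core and regulatory particle genes only, an alternative chosen after seeing the data. The 31 genes at 10 TPM became 18 in the second quantification. The median replicate ratio of all 45 genes, -0.044, became -0.0002 with library totals and -0.0743 in the second quantification. The retained-intron share of 31.7% became 44.1% in the second quantification and 24.8% by counts, and the protein-coding share of 71.2% became 59.8% and 81.6%. The cause was not tested. Without replicate 1 or 2, the core lay 0.13 to 0.52 below the regulatory particle (log2), and the median catalytic difference was 1.47 to 2.15. Of these alternatives, 32 left the value within the spread of the libraries (counts within 1.5 times) and 12 moved it. None of them changed the sign of the medians above, but the ratio of base and lid genes turned positive by TPM (0.05), Psmb9 over Psmb6 turned positive in replicate 2 in the second quantification, and 30 of 38 genes kept the sign of their ratio there. Every SD rests on 2 libraries, and genes under 100 counts have ratios set by counting error.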
